A study of Homo sapiens with 12 samples.

Results

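The transcripts described here are those of 7 genes at the gate between growth signals and DNA replication: the D-type cyclins CCND1 and CCND3, their kinase partners CDK4 and CDK6, and the pocket proteins RB1, RBL1 and RBL2. They were chosen by name, with earlier results of these data known. Each was found on 1 row of the 12931 gene rows that every file lists. CCND2, which codes for the remaining D-type cyclin, is not listed in the files and was not analysed here.

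D-type cyclins are made in response to growth signals such as the RAS-RAF-MEK-ERK cascade. They bind CDK4 or CDK6, and the active kinase phosphorylates the pocket proteins, which otherwise hold E2F transcription factors in check. Once E2F factors are released, cells express the genes for DNA replication and leave the first gap phase of the cell cycle. In melanoma the pathway is often altered, by loss of the CDK4/6 inhibitor p16 (CDKN2A), by gain of CCND1 or by mutation of CDK4. MEK inhibitors act above the cyclins, and CDK4/6 inhibitors act on the kinases.

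The samples were 12 RNA-seq libraries of WM1366, a human melanoma cell line with mutant NRAS, in 3 groups of 4. Combination R1 and combination R2 were labelled with a diet holding a MEK inhibitor and a CDK4/6 inhibitor, and control with a control diet, and the series describes xenograft tumours that were progressing. The sample labels describe cultured cells, and their treatment text names palbociclib, a CDK4/6 inhibitor, at 0.1 uM and PD0325901, a MEK inhibitor, at 1 nM for every sample, control included. They say neither what separates R1 from R2 nor whether replicates are separate tumours, so p-values measure only the spread between these libraries, which may be technical. Of 12 markers of melanoma and melanocytes, 4 were listed: AXL, CSPG4, MITF and PMEL. SOX10 and MLANA, which mark most melanomas, are not among the listed genes.

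Values are normalised read counts per library. Group values are mean ± SD (n = 4), and tests are limma on log2(value + 0.5) over all 12931 rows with Benjamini-Hochberg adjustment. An adjusted p under 0.05 was required to call a gene risen or fallen. Depth was 20003891 to 39009384 reads per library, and the members had between 364 and 25905 reads in a library. Mitochondrial genome transcripts took 2.17% to 3.28% of reads in R1, 4.02% to 9.63% in R2 and 5.86% to 10.9% in control. Summed endothelial markers (4 of 12 listed) ranged from 375 to 499 in R1, from 126 to 157 in R2 and from 133 to 172 in control, while CDH5, KDR and FLT1, which define endothelium, are not listed. TIE1 carried most of this sum (394 ± 54.6 in R1, 135 ± 14.0 in R2 and 139 ± 14.6 in control). Of these 4 markers 3 rose in R1 and 2 fell in R2 against control, EGFL7 by a log2 fold change of -2.99 (adjusted p = 3.4e-08) and PECAM1 of -1.09 (adjusted p = 0.0332), and PECAM1 in R1 was at 0.15 (adjusted p = 0.744). Summed fibroblast and pericyte markers (6 of 12 listed) ranged from 514 to 669.7 in R1, from 742 to 827 in R2 and from 627 to 741 in control, most of it from THY1 (491 ± 52.0 in R1, 553 ± 71.9 in R2 and 420.2 ± 34.5 in control) and COL1A1. Of these 6, FAP rose and COL1A1 fell in R1 against control, and in R2 against control THY1 rose while PDGFRB (-2.34, adjusted p = 0.00030) and LUM (-1.46, adjusted p = 0.0017) fell. Summed leukocyte markers (2 of 13 listed) ranged from 4.13 to 15.5 in R1, from 0.378 to 0.811 in R2 and from 1.72 to 4.17 in control, and PTPRC and CD14 are not listed. Of 6 keratinocyte markers KRT10 was listed, at 23.0 to 34.7 in R1, 13.8 to 21.7 in R2 and 16.0 to 18.5 in control, and 0 of 6 red cell markers were. The 4 listed melanoma markers summed to 829.8 to 1125 in R1, 1356 to 1584 in R2 and 1553 to 1733 in control, nearly all of it AXL (825 ± 144 in R1, 1441 ± 96.5 in R2 and 1584 ± 80.1 in control). PMEL (log2 fold change 2.24, adjusted p = 1.5e-06) and CSPG4 (1.65, adjusted p = 0.0019) rose and AXL and MITF fell in R1 against control, while in R2 PMEL rose and CSPG4 and MITF fell. What part these differences have in the results was not tested, and reads of mouse host cells were not separated here.

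Of the 7 symbols, 6 matched a RefSeq promoter window, all but CCND1. Windows are shown for those of the 6 that held a match to the letters searched, since RBL1 is a textbook E2F target and CDK4 a textbook MYC target. Both are from RefSeq (GRCh38.p14), cover the 250 bases before the annotated start, and are written 5′ to 3′ on the minus strand. Capitals mark the matches. The RBL1 window is chr20:37095998-37096247. The CDK4 window, chr12:57752311-57752560, belongs to a RefSeq start that lies inside the longer gene span of GENCODE.
RBL1: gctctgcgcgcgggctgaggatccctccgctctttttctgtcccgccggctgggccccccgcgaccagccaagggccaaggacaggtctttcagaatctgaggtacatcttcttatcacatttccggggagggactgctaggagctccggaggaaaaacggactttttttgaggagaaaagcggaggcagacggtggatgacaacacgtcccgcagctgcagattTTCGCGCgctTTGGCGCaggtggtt
CDK4: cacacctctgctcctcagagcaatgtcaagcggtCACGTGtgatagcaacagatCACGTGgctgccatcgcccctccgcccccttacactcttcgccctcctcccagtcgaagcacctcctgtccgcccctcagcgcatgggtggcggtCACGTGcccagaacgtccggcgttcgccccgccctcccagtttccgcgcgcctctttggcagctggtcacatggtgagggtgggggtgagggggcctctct

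The E2F core was searched as TTCCCGC or TTCGCGC or TTGGCGC or TTGCCGC, on both strands. RBL1 held 2 matches, which began 25 and 15 bases before the start, and 1.35% of 35116 RefSeq windows of the same length held at least 2. The E-box bound by MYC was searched as CACGTG, which reads the same on both strands. CDK4 held 3 matches, at 216, 196 and 101 bases before the start, and 0.0797% of all windows held at least 3. The windows found for CCND3, CDK6, RB1 and RBL2 held neither motif. The RB1 window begins at 48476200 on chromosome 13, inside the GENCODE gene span that starts at 48303726. The bases before that GENCODE start of RB1 were not searched. A match is a description of the letters and not a measured binding site.

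**Figure D1:**
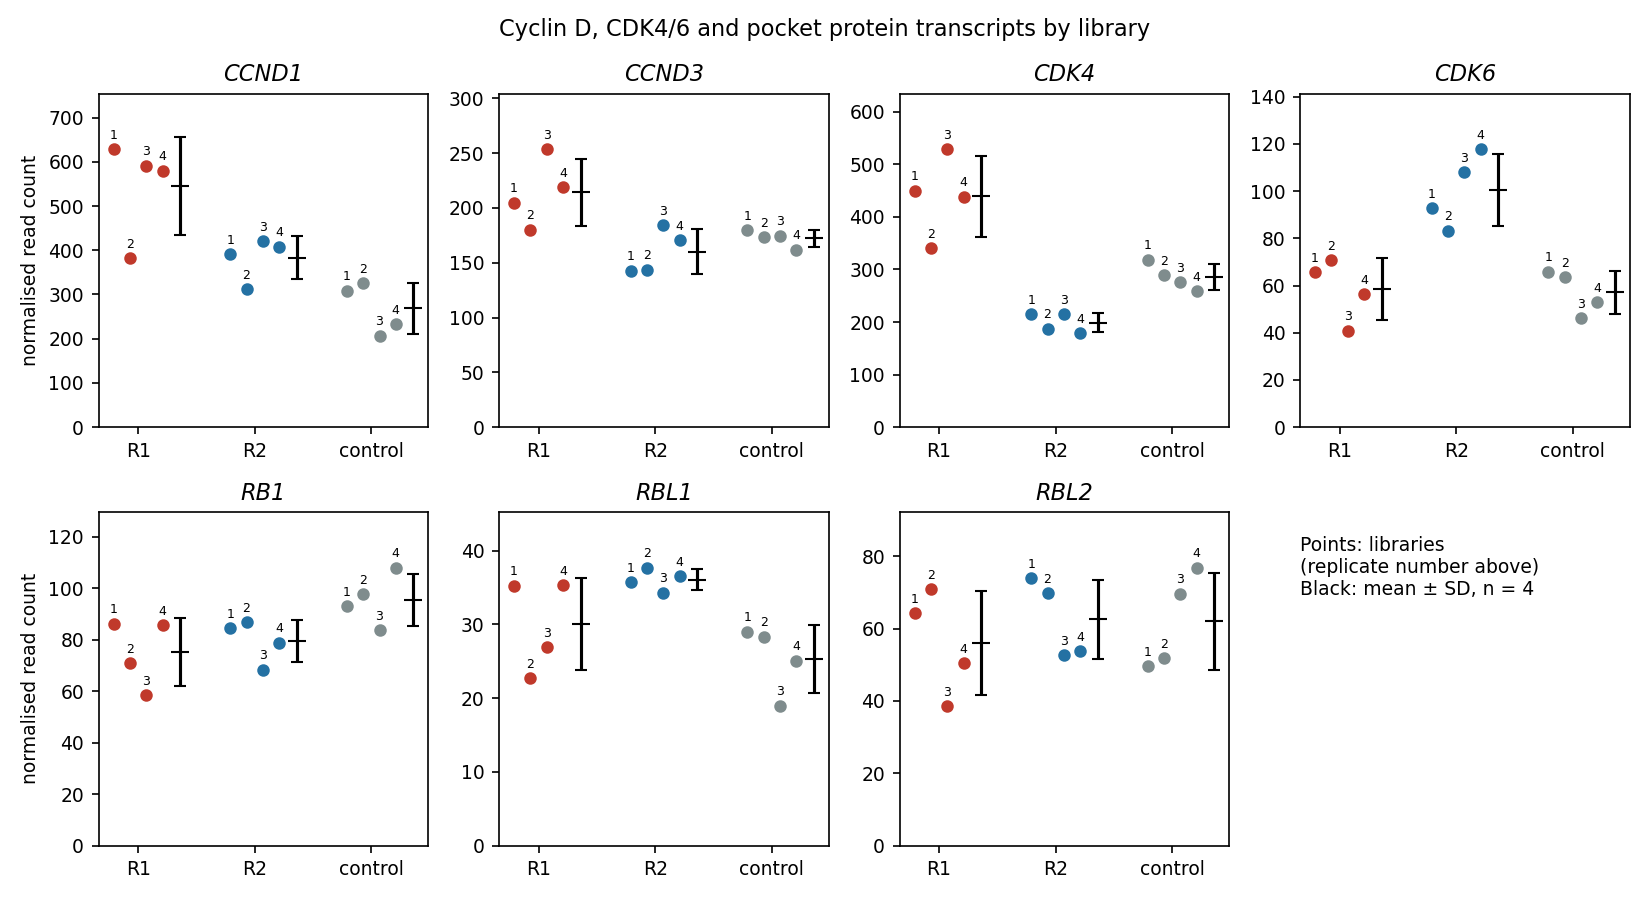
Normalised read count (vertical axes, linear from 0) of each of the 7 genes in the 12 libraries, by group, with replicate numbers above the points and mean ± SD in black. CDK4 in the 4 R2 libraries (179 to 215) lay below the 4 control libraries (259 to 319), and CDK6 in R2 (83.2 to 118) lay above them (46.3 to 65.8).

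CCND1 codes for cyclin D1, the D-type cyclin most directly induced by ERK signalling. It had 629, 382, 591 and 579 normalised counts in R1 replicates 1 to 4, 391, 312, 420.2 and 408 in R2, and 309, 326, 207 and 232 in control. Every R1 library was above every control library, and R1 replicate 2 was well below the other R1 libraries, while the lowest R2 library lay within the control range. CCND1 averaged 545 ± 111 in R1 and 268 ± 57.8 in control, a 2.03-fold difference (log2 fold change 1.02, SE 0.18, adjusted p = 0.000402). In a tumour library, fewer cells of a type and less RNA per cell cannot be told apart. In R2 it averaged 383 ± 48.7, or 1.43 times control (log2 fold change 0.53, SE 0.18, adjusted p = 0.0400). That call needed R2 replicates 1, 3 and 4 and control replicates 3 and 4: leaving out any 1 of them gave adjusted p up to 0.128. A limma fit with replicate number as a block also ended it (adjusted p = 0.0526). R2 was lower than R1 (log2 fold change -0.49, SE 0.18, adjusted p = 0.0346). Leaving out R1 replicate 1, 3 or 4, or R2 replicate 1 or 2, ended this call, with adjusted p up to 0.0984.

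CCND3 codes for cyclin D3, which is less dependent on ERK in most cells. It had 205, 180.2, 254 and 219 normalised counts in R1, 143, 144, 184 and 170.5 in R2, and 179, 173, 175 and 162 in control. All R1 libraries were above all control libraries, the lowest of them by less than 1 count, and R2 lay on both sides of control. CCND3 averaged 214 ± 30.6 in R1 and 172 ± 7.52 in control (difference 0.30 on the log2 scale, SE 0.12, adjusted p = 0.0480). This call ended when R1 replicate 1, 3 or 4, R2 replicate 1 or 4, or any single control library was left out, with adjusted p up to 0.126. At 160.2 ± 20.5, R2 did not pass the test against control (log2 fold change -0.11, 95% interval -0.36 to 0.14, adjusted p = 0.510). Against R1, R2 was lower (log2 fold change -0.42, SE 0.12, adjusted p = 0.0096), with 1 R2 library inside the R1 range.

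CDK4, a kinase partner of the D-type cyclins and a target of palbociclib, had 449.9, 341, 529 and 438 normalised counts in R1, 215, 187, 215 and 179 in R2, and 319, 289, 276 and 259 in control. None of the 3 groups overlapped: every R1 library was above control and every R2 library below it. CDK4 averaged 439 ± 77.1 in R1, 199 ± 18.8 in R2 and 286 ± 25.3 in control. It was 1.54-fold higher in R1 than in control (a log2 difference of 0.61, SE 0.13, adjusted p = 0.0017) and stood at 0.697 of the control mean in R2 (log2 fold change -0.52, SE 0.13, adjusted p = 0.0077). R2 was at 0.453 of R1 (log2 fold change -1.13, SE 0.13, adjusted p = 1.1e-05). All 3 calls passed in each fit that left out 1 library, with adjusted p up to 0.0273. TSPAN31, a tetraspanin gene on the other strand, shares 1369 of the 3168 exon bases of CDK4 (43.2%) in GENCODE, and the counting is not stated to use strand, so reads there cannot be assigned with certainty. TSPAN31 was listed at 32.7 in R1, 14.5 in R2 and 23.9 in control, with log2 fold changes of -0.73 for R2 against control (adjusted p = 0.0407) and -1.19 for R2 against R1 (adjusted p = 0.0014). It did not pass in R1 against control (0.46, adjusted p = 0.147).

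CDK6, the other kinase that binds D-type cyclins and palbociclib, had 65.7, 70.6, 40.9 and 56.3 normalised counts in R1, 92.7, 83.2, 108 and 118 in R2, and 65.8, 63.6, 46.3 and 53.0 in control. All R2 libraries were above all libraries of R1 and control, whose values overlapped. CDK6 averaged 100.4 ± 15.4 in R2 and 57.2 ± 9.17 in control, 1.76-fold higher (log2 fold change 0.81, SE 0.17, adjusted p = 0.0028). In R1 it averaged 58.4 ± 13.1 and did not pass against control (log2 fold change 0.01, 95% interval -0.35 to 0.38, adjusted p = 0.955). R2 was 1.72-fold above R1 (log2 fold change 0.79, SE 0.17, adjusted p = 0.0018). Both CDK6 calls passed in each fit that left out 1 library, with adjusted p up to 0.0119.

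Per kilobase of exon (GENCODE), CDK4 stood at 31.3 ± 13.4 times CDK6 in R1, 7.81 ± 1.40 times in R2 and 19.6 ± 2.41 times in control. This ratio was 5.88 to 8.98 in the 4 R2 libraries and 17.6 to 23.1 in the 4 control libraries, without overlap, while R1 (18.7 to 50.1) overlapped control. CDK4 made up 88.4% ± 2.07 of the summed CDK4 and CDK6 level per kilobase in R2, and 95.1% ± 0.527 in control. CCND1 per kilobase was 3.05 ± 0.496 times CCND3 in R1, 2.88 ± 0.298 times in R2 and 1.87 ± 0.369 times in control. The size of each ratio depends on the exon lengths used, which are the same in every group. These ratios are descriptions with no test.

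RB1 codes for the retinoblastoma protein, which binds the activating E2F factors. It had 86.1, 70.8, 58.4 and 85.6 normalised counts in R1, 84.4, 86.7, 68.3 and 78.8 in R2, and 93.0, 97.5, 83.6 and 108 in control. Both combination groups overlapped control at its lowest library, control replicate 3. RB1 averaged 75.2 ± 13.3 in R1 and 95.5 ± 10.1 in control (difference -0.35 on the log2 scale, SE 0.13, adjusted p = 0.0431). That fall was no longer called when any 1 of R1 replicates 2 and 3, R2 replicates 1 and 4, and control replicates 1, 2 and 4 was left out, with adjusted p up to 0.124, with quantile scaling (adjusted p = 0.0800), with library totals that leave out mitochondrial and ribosomal protein genes (0.104), or in a fit of R1 and control alone (0.0628). In R2, at 79.5 ± 8.17, it did not pass (log2 fold change -0.26, 95% interval -0.55 to 0.02, adjusted p = 0.156). Reads for RB1 were present in all 12 libraries, at 58.4 or more normalised counts.

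RBL1 codes for p107, a pocket protein that binds mainly the repressive E2F4 and is itself an E2F target. It had 35.3, 22.7, 26.9 and 35.3 normalised counts in R1, 35.8, 37.7, 34.3 and 36.5 in R2, and 29.01, 28.3, 19.0 and 25.1 in control. All R2 libraries lay close together and above all control libraries, while R1 spread across both. RBL1 averaged 36.1 ± 1.43 in R2 and 25.4 ± 4.59 in control, 1.42-fold higher (a log2 difference of 0.52, SE 0.16, adjusted p = 0.0246). Leaving out any 1 of R2 replicates 1, 2 and 4 and control replicates 3 and 4 ended this call, with adjusted p up to 0.0825. R1, at 30.0 ± 6.28, did not pass against control (log2 fold change 0.24, 95% interval -0.10 to 0.57, adjusted p = 0.245), and R2 did not pass against R1 (log2 fold change 0.28, 95% interval -0.06 to 0.62, adjusted p = 0.157).

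RBL2 codes for p130, the pocket protein of resting cells, which joins the DREAM complex that silences cell cycle genes. It had 64.2, 70.9, 38.5 and 50.4 normalised counts in R1, 74.0, 69.7, 52.6 and 53.7 in R2, and 49.7, 51.9, 69.6 and 76.8 in control. The ranges of the groups overlapped, with R1 replicate 3 below every R2 and control library, and no comparison passed. RBL2 differed from control by -0.16 in R1 (95% interval -0.58 to 0.26, adjusted p = 0.537) and by 0.02 in R2 (95% interval -0.40 to 0.44, adjusted p = 0.951) on the log2 scale, and R2 from R1 by 0.18 (95% interval -0.24 to 0.60, adjusted p = 0.477). AKTIP, on the other strand, shares 8.33% of the exon bases of RBL2.

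**Figure D2:**
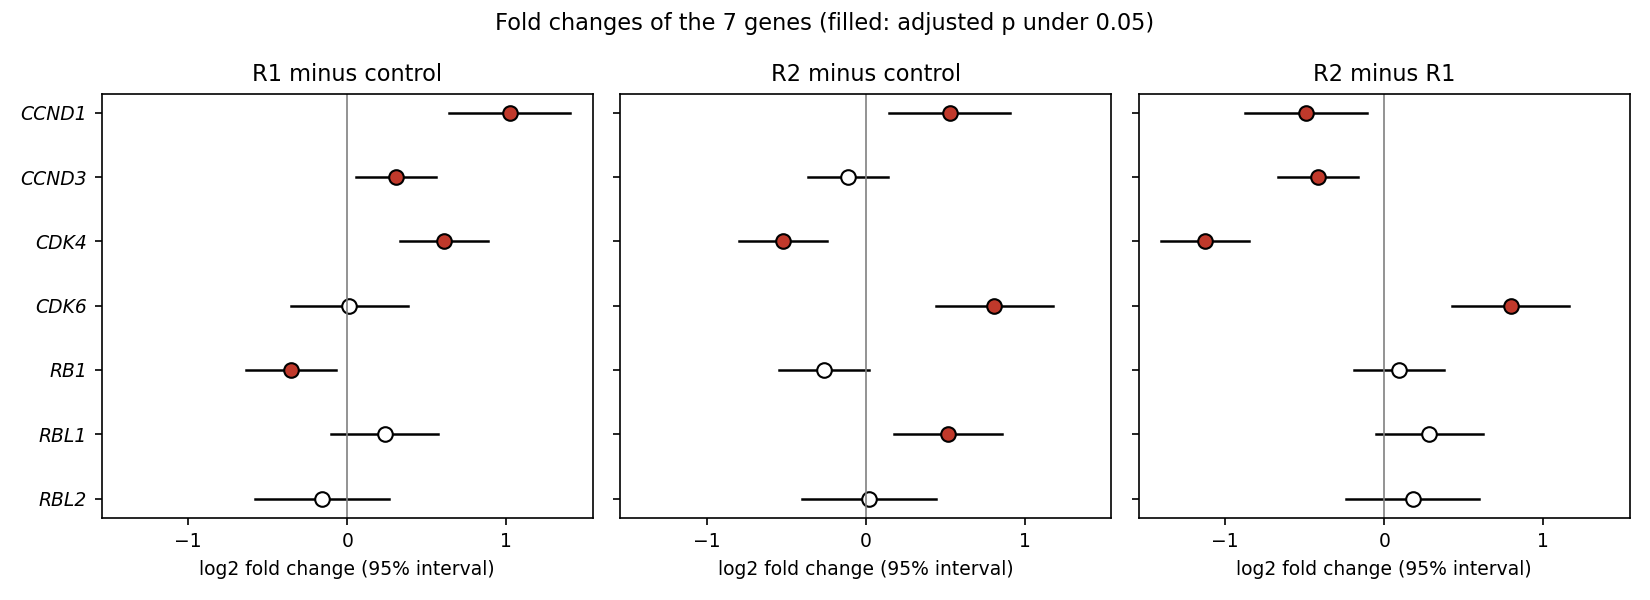
Log2 fold change with its 95% interval (horizontal axes) of the 7 genes in the 3 comparisons, filled where the adjusted p was under 0.05. CDK4 was at 0.61 in R1 and -0.52 in R2 against control, and CDK6 at 0.01 in R1 and 0.81 in R2.

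In all, 3 of the 7 members rose (CCND1, CCND3, CDK4) and 1 fell (RB1) in R1 against control, where 43.8% of all genes were called, 22.4% up and 21.4% down. In R2 against control 3 rose (CCND1, CDK6, RBL1) and 1 fell (CDK4), where 28.4% of all genes were called, 13.6% up and 14.8% down. In R2 against R1, CDK6 rose and CCND1, CCND3 and CDK4 fell, where 46.8% of all genes were called, 22.8% up and 24% down. The median log2 fold change of the members was 0.24, 0.02 and 0.09 in these comparisons, and that of all genes was 0.01, 0.03 and -0.0009. The comparisons with control share the control libraries. Ranges were apart for 3 members in R1 against control (39.7% of all genes), 3 in R2 against control (34.8%) and 2 in R2 against R1 (39.4%).

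The order of levels per kilobase differed between groups at the top. CDK4 led at 139 ± 24.3 in R1 and 90.2 ± 7.99 in control, ahead of CCND1 at 113 ± 22.9 in R1 and 55.6 ± 11.96 in control. In R2 CCND1 led, at 79.2 ± 10.1, ahead of CDK4 at 62.8 ± 5.92. The order within a group rests on GENCODE exon lengths. Of the 3168 exon bases used for CDK4, 1369 are shared with TSPAN31, and a shorter length would raise its level per kilobase in every group. Other lengths were not tried. CDK4 and CCND1 overlapped between libraries in R1 and R2 and not in control, where the lowest CDK4 library (81.7) was above the highest CCND1 library (67.5). CCND3 came next in each group, at 36.9 ± 5.28 in R1, 27.6 ± 3.53 in R2 and 29.7 ± 1.30 in control. RB1 followed at 11.7 ± 2.06 in R1, 12.3 ± 1.27 in R2 and 14.8 ± 1.57 in control, then RBL2 at 7.65 ± 1.98 in R1, 8.54 ± 1.49 in R2 and 8.47 ± 1.82 in control. CDK6 and RBL1 were lowest, at 4.76 ± 1.07 and 5.05 ± 1.06 in R1, 8.19 ± 1.26 and 6.06 ± 0.24 in R2, and 4.66 ± 0.748 and 4.26 ± 0.771 in control. CCND3 was above RB1 in every library, and RB1 and RBL2 overlapped in R1 and not in R2 or control. RBL2 overlapped RBL1 in R1. CDK6 overlapped RBL1 in R1 and control, and in R2 it lay above RBL1 and overlapped RBL2. Of the summed pocket protein level per kilobase, RB1 held 47.8% ± 2.47 in R1, 45.8% ± 1.25 in R2 and 53.8% ± 2.48 in control.

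**Figure D3:**
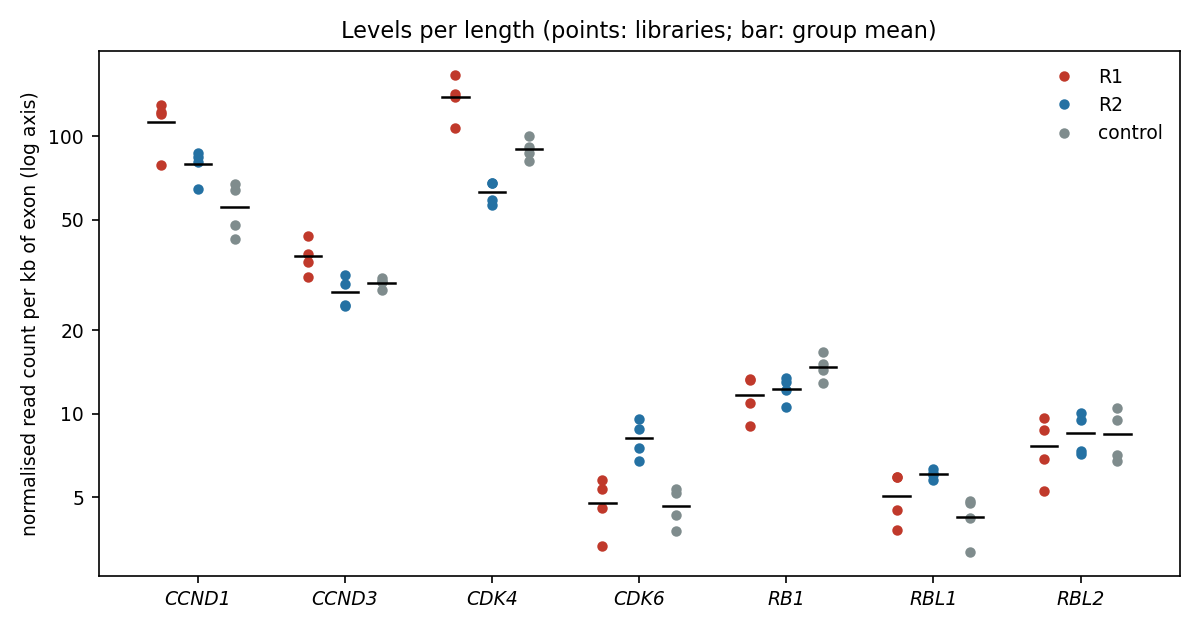
Normalised read count per kilobase of exon (log axis) of the 7 genes in every library, with group means as bars. CDK4 (139) and CCND1 (113) led in R1, and CDK6 was at 4.76 in R1, 8.19 in R2 and 4.66 in control.

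All 7 members lie on different chromosomes, and the genes around them were compared with them (GRCh38, GENCODE). The windows and comparisons given differ between members. Of all genes 22.4% rose and 21.4% fell in R1 against control, and 13.6% and 14.8% in R2 against control. These shares are the background of each window below. CDK4 lies on chromosome 12, 57747727 to 57756013, minus strand. Of 102 listed genes starting within 5 Mb of it, 2 rose and 45 fell in R2 against control, with a median log2 fold change of -0.30, and 28 rose and 15 fell in R1 against control, with a median of 0.15. Genes beyond these 5 Mb also fell in R2. Over the whole of chromosome 12, these 102 genes included, 21 of 648 listed genes other than CDK4 rose and 253 fell. That is 39.0% fallen, against 14.8% of all genes, with a median of -0.30, beside -0.52 for CDK4. The shares were uneven: 5 of 30 genes fell in the 10 Mb on the side away from transcription next to CDK4, 71 of 155 in the 10 Mb on the other side, and 7 of 28 in the 10 Mb after those, where the median was -0.04. Successive 10 Mb windows beyond these had 11 of 18, 13 of 29, 19 of 40 and 35 of 63 fallen. On the side away from transcription, successive windows further out had 11 of 36, 3 of 10, 14 of 32, 8 of 42, 25 of 63, 26 of 77 and 5 of 25 fallen. Among 23 chromosomes with at least 100 listed genes, chromosome 12 had the second largest share of fallen genes in this comparison, after chromosome 15 (78.1%). In R1 against control, 137 rose and 162 fell on chromosome 12. There the 18 genes from 20 to 30 Mb beyond CDK4 in its direction of transcription had 16 fallen (median -1.07). The 29 genes of the next 10 Mb had 2 risen and 19 fallen (median -0.66). From 40 to 50 Mb, 0 of 40 genes rose and 26 fell (median -0.58). From 50 to 60 Mb, 5 of 63 rose and 33 fell (median -0.41). The 155 genes within 10 Mb on that side had 45 risen and 29 fallen. These windows were looked up after the values of CDK4 were known, and DNA copy number was not analysed here.

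**Figure D4:**
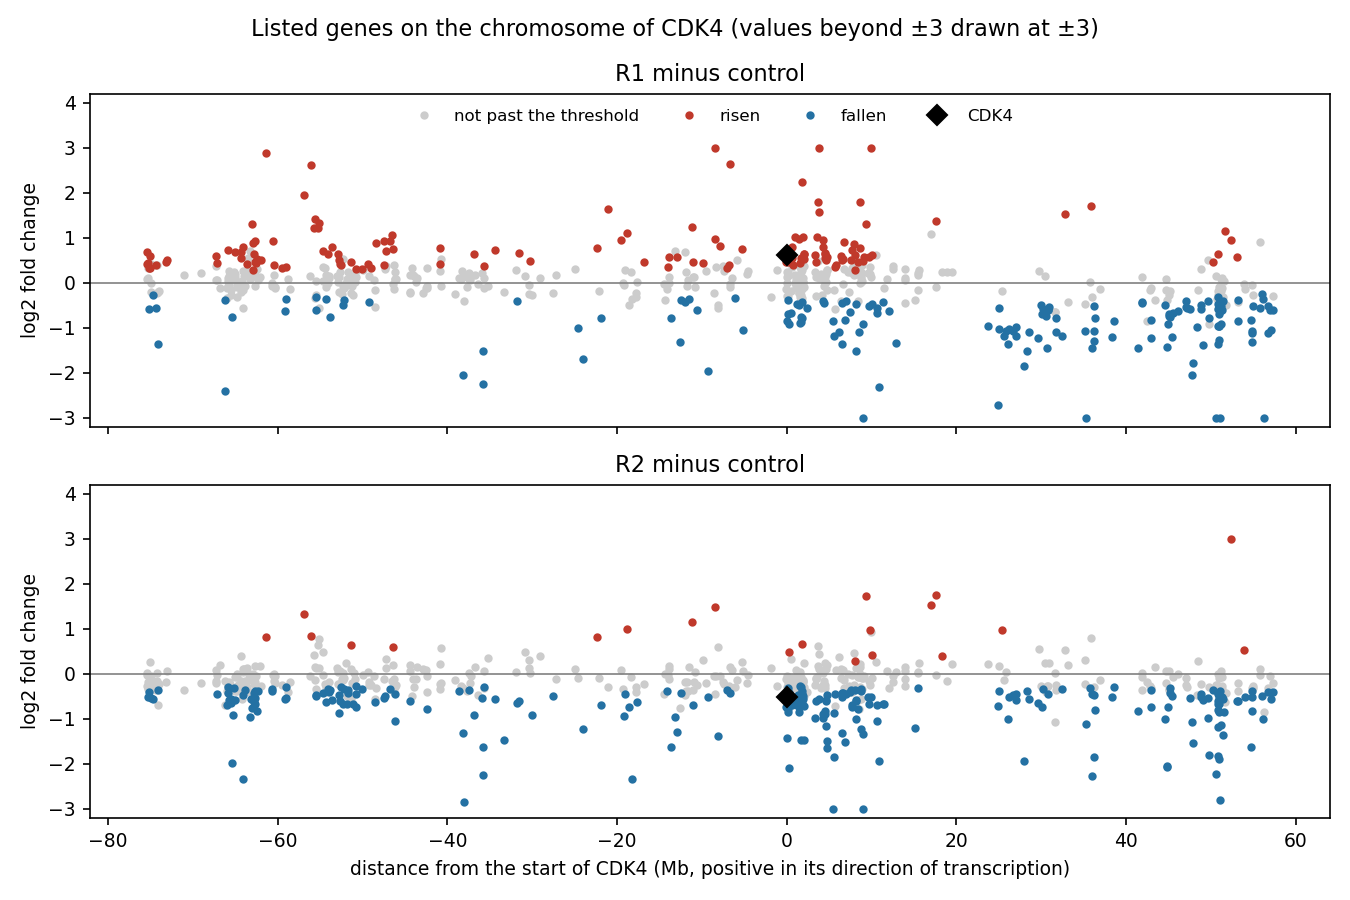
Log2 fold change (vertical axes) of listed genes on chromosome 12 by distance from the start of CDK4 (Mb), for R1 and R2 against control, with CDK4 as a black diamond. In R2 the fallen genes (253 of 648) lie on both sides of CDK4 in uneven shares, with 5 of 30 in the 10 Mb to its left and 71 of 155 in the 10 Mb to its right. In R1 16 of the 18 genes from 20 to 30 Mb on the right fell. Successive 10 Mb windows from 30 to 60 Mb on the right had 19 of 29, 26 of 40 and 33 of 63 fallen in R1.

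CDK6 lies on chromosome 7, 92604921 to 92836594, minus strand. Of 30 listed genes within 5 Mb of it, 3 rose and 4 fell in R2 against control, with a median log2 fold change of 0.16, beside 0.81 for CDK6. In R2 against R1, 197 of the 561 other listed genes of chromosome 7 rose (35.1%, against 22.8% of all genes) and 79 fell, with a median of 0.16. Within 5 Mb of CDK6, 7 of the 30 rose and 1 fell in that comparison, with a median of 0.20. CCND1 lies on chromosome 11, 69641087 to 69654474, plus strand, and the LTO1 gene on the other strand shares 10.3% of its exon bases. Of 10 listed genes within 1 Mb of CCND1, 5 rose in R1 against control, with a median of 0.37 beside 1.02 for CCND1. Within 5 Mb these counts were 36 and 14 of 136, with a median of 0.08. In R2 against control, 2 of the 10 rose, with a median of 0.06 beside 0.53 for CCND1.

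CCND3 lies on chromosome 6, 41934933 to 42050357, minus strand, and 199 of the 624 other listed genes there rose in R1 against control (31.9%, against 22.4% of all genes), with a median of 0.16 beside 0.30 for CCND3. Within 5 Mb of CCND3, 17 of 69 rose and 6 fell, with a median of 0.13. Within 1 Mb, 5 of 26 rose and 2 fell, with a median of 0.02. RBL1 lies on chromosome 20, 36996349 to 37095995, minus strand. Of 77 listed genes within 5 Mb of RBL1, 14 rose and 8 fell in R2 against control, with a median of 0.11 beside 0.52 for RBL1. RBL2 lies on chromosome 16, 53433977 to 53491649, plus strand, where 193 of 525 other listed genes fell in R1 against control (36.8%, against 21.4% of all genes), with a median of -0.24 beside -0.16 for RBL2. Within 5 Mb of RBL2, 8 of 47 rose and 19 fell, with a median of -0.19. RB1 lies on chromosome 13, 48303726 to 48599436, plus strand. Of 47 listed genes within 5 Mb of RB1, 11 rose and 13 fell in R1 against control, with a median of -0.01 beside -0.35 for RB1.

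Around the members, 12 lists of other pathway genes were drawn up by name, also with earlier results of these data known, with 119 of 121 genes listed. In R1 against control 15 of these rose and 32 fell, in R2 against control 12 rose and 14 fell, and in R2 against R1 37 rose and 13 fell. Of all genes 22.4% rose and 21.4% fell in R1 against control, 13.6% and 14.8% in R2 against control, and 22.8% and 24% in R2 against R1, and these shares are also the background of each list that follows. Their median log2 fold change was -0.15, 0.03 and 0.13 in these comparisons. R1 replicate 2 decided part of this: without it, 28 rose and 29 fell in R1 against control, 21 rose and 21 fell in R2 against control, and 33 rose and 23 fell in R2 against R1. Counts of 1 or 2 genes in a single list often moved by 1 when a library was left out, and moves of over 1.5 times in larger counts are given with the list.

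**Figure D5:**
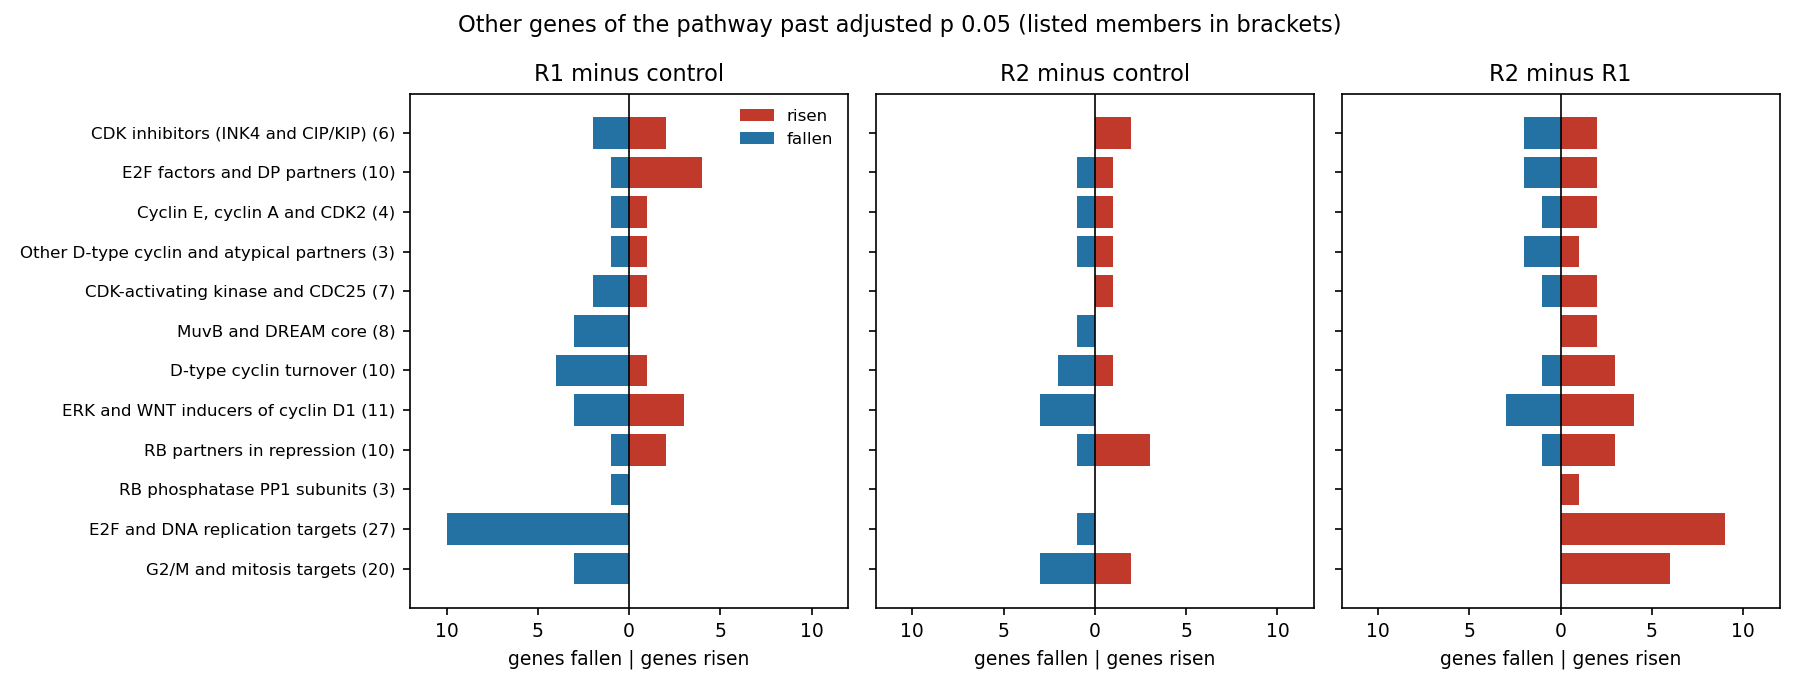
Number of genes risen (right) and fallen (left) in each of 12 lists of pathway genes in the 3 comparisons, with the number of listed genes in brackets. The E2F and DNA replication targets had 10 of 27 fallen in R1 against control and 9 of 27 risen in R2 against R1.

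The inhibitors of these kinases moved in both directions. Of 6 listed INK4 and CIP/KIP genes, 2 rose and 2 fell in R1 against control, with a median log2 fold change of -0.13. CDKN2D, which codes for the CDK4/6 inhibitor p19, rose in R1 (24.0 ± 6.57 against 9.05 ± 1.81 in control, log2 fold change 1.34, adjusted p = 6.9e-05) and in R2 (13.7 ± 1.80, log2 fold change 0.59, adjusted p = 0.0329), a call that ended without R2 replicate 1, 2 or 3 or control replicate 1 or 2 (highest adjusted p 0.0951). CDKN1A, which codes for p21, was at 61.0 ± 14.6 in R1 and 13.4 ± 3.59 in control (log2 fold change 2.15, adjusted p = 0.00029), and at 9.24 ± 5.52 in R2, below R1 (log2 fold change -2.83, adjusted p = 2.8e-05). CDKN2C, which codes for p18, rose in R2 (51.4 ± 14.6 against 26.3 ± 1.29 in control, log2 fold change 0.91, adjusted p = 0.0013). CDKN2A was at 126 ± 19.9 in R1, 138 ± 15.3 in R2 and 177 ± 24.5 in control, and fell in R1 (log2 fold change -0.49, adjusted p = 0.0081) while R2 did not pass (-0.36, adjusted p = 0.0551). In R2 against control 2 of the 6 rose, though their median was -0.36, and in R2 against R1 2 rose and 2 fell.

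Among 10 E2F factors and DP partners, 4 rose and 1 fell in R1 against control, and 1 rose and 1 fell in R2 against control. E2F8, a repressive E2F, was at 16.2 ± 3.81 in R2 and 0.952 ± 0.0797 in control (log2 fold change 3.50, adjusted p = 9.2e-07), and at 3.56 ± 1.81 in R1 (1.35, adjusted p = 0.0019). E2F4, the partner of RBL1 and RBL2, fell in R1 (229 ± 25.1 against 338 ± 32.2 in control, log2 fold change -0.56, adjusted p = 0.00097) and in R2 (259 ± 24.2, -0.38, adjusted p = 0.018), the R2 call ending without R2 replicate 3 or control replicate 1 (highest adjusted p 0.0592). TFDP2, a dimer partner of E2F factors, rose in R1 (279 ± 34.2 against 183 ± 5.77 in control, 0.60, adjusted p = 0.00021).

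Downstream, CCNE1, the cyclin E1 that drives CDK2, rose in both combination groups, to 14.6 ± 2.34 in R1 (0.41, adjusted p = 0.0208) and 24.1 ± 1.69 in R2 (1.13, adjusted p = 2.3e-05), against 10.8 ± 1.15 in control. Leaving out R1 replicate 1 or control replicate 3 or 4 ended its R1 call, with adjusted p up to 0.0659. CDK2 itself fell in R2 (81.1 ± 7.39 against 115 ± 9.38 in control, -0.50, adjusted p = 0.0134), and it did not pass in R1 (-0.15, adjusted p = 0.389). CCNA2, the cyclin A2 of S phase, fell in R1 (80.8 ± 31.6 against 128 ± 11.5 in control, -0.77, adjusted p = 0.0316), and in R2 it was above R1 (128 ± 25.9, 0.75, adjusted p = 0.0334). The fall in CCNA2 was not called without control replicate 1, 2 or 4 (highest adjusted p 0.0739), nor its difference between R2 and R1 without R2 replicate 3 or 4 (up to 0.0931). Of 3 atypical partners, 1 rose and 1 fell in R1 and in R2 against control, and 1 rose and 2 fell in R2 against R1. CDK5, a kinase best known from neurons, rose in R1 (33.4 ± 9.75 against 22.5 ± 1.03 in control, 0.51, adjusted p = 0.0202, and 0.0535 without control replicate 4), and CDK14, a kinase of WNT signalling, rose in R2 (16.9 ± 1.01 against 10.5 ± 0.968 in control, 0.66, adjusted p = 0.0014). CCNDBP1 fell in R1 (-0.29, adjusted p = 0.0490), a call that ended without any single control library, and in R2, where its values are given below.

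Of 27 E2F and DNA replication targets, 0 rose and 10 fell in R1 against control, 0 rose and 1 fell in R2 against control, and 9 rose and 0 fell in R2 against R1. At an unadjusted p under 0.05 limma gave 0 risen and 12 fallen, 0 and 3, and 10 and 0 in these comparisons, and edgeR with adjustment gave 0 and 8, 0 and 1, and 9 and 0. The counts depended on R1 replicate 2: without it, 3 rose and 7 fell in R1 against control, 2 rose and 4 fell in R2 against control, and 7 rose and 4 fell in R2 against R1. Without control replicate 1 or 2, 6 fell in R1 against control. CHAF1B, a histone chaperone of replication, was at 19.7 ± 5.78 in R1 and 46.9 ± 6.72 in control (log2 fold change -1.27, adjusted p = 0.00030), and at 43.3 ± 9.45 in R2, above R1 (1.14, adjusted p = 0.00065). SLBP, which binds histone mRNA, was at 48.4 ± 10.3 in R1, 80.5 ± 6.06 in R2 and 80.6 ± 5.10 in control, and fell in R1 (-0.76, adjusted p = 0.00056). DTL, a substrate receptor of replication-coupled protein breakdown, fell in R2 (60.4 ± 4.11 against 90.7 ± 17.0 in control, -0.57, adjusted p = 0.0162), a call that ended without control replicate 1 or 2 (highest adjusted p 0.0548).

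Of 20 G2/M and mitosis targets, 3 fell in R1 against control, and 2 rose and 3 fell in R2 against control. In R2 against R1, 6 rose and 0 fell (7 and 1 at an unadjusted p under 0.05, and 5 and 1 by edgeR). MKI67, the proliferation marker, was at 598 ± 85.9 in R2 and 349 ± 81.5 in control (0.79, adjusted p = 0.0052), and at 282 ± 67.2 in R1 (-0.31, adjusted p = 0.187). The mitotic kinase PLK1 fell in R1 (119 ± 42.0 against 246 ± 21.3 in control, -1.13, adjusted p = 0.0012), and so did AURKB, the kinase of the chromosomal passenger complex (49.5 ± 20.9 against 114 ± 14.5 in control, -1.31, adjusted p = 0.0014). AURKB also fell in R2 (61.4 ± 9.43, -0.90, adjusted p = 0.0238). Its R2 call ended without R2 replicate 2 or control replicate 1, 2 or 3 (highest adjusted p 0.0614). CCNB2, a mitotic cyclin, fell in R2 (37.9 ± 1.63 against 72.1 ± 3.37 in control, -0.92, adjusted p = 0.0059). Without R1 replicate 2 the G2/M counts were 5 risen and 3 fallen in R1 against control, 5 and 4 in R2 against control, and 6 and 5 in R2 against R1. Without R1 replicate 4, 5 fell in R1 against control, and without R2 replicate 2 or control replicate 1, 2 or 3, 1 fell in R2 against control.

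Of 8 MuvB and DREAM genes, 3 fell in R1 against control and 1 fell in R2 against control, while 2 rose in R2 against R1. FOXM1, an activator of mitotic genes, fell in both, to 204 ± 64.7 in R1 (-1.33, adjusted p = 0.00026) and 276 ± 35.9 in R2 (-0.83, adjusted p = 0.0115), against 493 ± 75.8 in control. DYRK1A, a kinase that assembles DREAM, fell in R1 (32.5 ± 3.65 against 42.4 ± 1.48 in control, -0.39, adjusted p = 0.0167), and MYBL2, a MuvB partner of S phase, was higher in R2 (203 ± 50.6) than in R1 (105 ± 30.6; log2 fold change 0.97, adjusted p = 0.0027). Of 7 genes of the CDK-activating kinase and the CDC25 and WEE1 switches, 1 rose and 2 fell in R1 against control and 1 rose in R2 against control. MNAT1, an assembly factor of the CDK-activating kinase, rose in R1 (25.3 ± 2.65 against 12.8 ± 1.62 in control, 0.96, adjusted p = 3.8e-05) and in R2 (22.2 ± 2.32, 0.77, adjusted p = 0.00039). WEE1, which inhibits CDK1 and CDK2, fell in R1 (13.1 ± 3.21 against 24.6 ± 0.83 in control, -0.91, adjusted p = 0.00063). CDC25B, a phosphatase that activates CDK1, was higher in R2 (63.0 ± 4.81) than in R1 (42.2 ± 7.12; log2 fold change 0.59, adjusted p = 0.0012).

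Of 11 ERK and WNT inducers of cyclin D1, 3 rose and 3 fell in R1 against control, 3 fell in R2 against control, and 4 rose and 3 fell in R2 against R1. The naming rule chose only fallen genes against control here, so the 3 that rose in R1 are added. They were FOS (1.18, adjusted p = 0.0073), JUNB (0.79, adjusted p = 0.0178) and ETS1 (0.48, adjusted p = 0.0358), and FOS fell in R2 (-1.14, adjusted p = 0.0142). Without control replicate 1 or 2, 1 rose in R1 against control. FOSL2, an AP-1 subunit, fell in R1 (106 ± 9.63 against 291 ± 32.7 in control, -1.45, adjusted p = 1.3e-07) and in R2 (186 ± 11.4, -0.64, adjusted p = 0.00038). TCF7L2, a WNT effector, fell in R1 (14.2 ± 1.84 against 36.1 ± 5.94 in control, -1.31, adjusted p = 1.2e-05). ETS2, an ERK-regulated transcription factor, fell in R2 (63.4 ± 9.72 against 107 ± 8.67 in control, -0.77, adjusted p = 0.00031). MYC, named because its E-box was searched in the CDK4 window shown above and outside the naming rule, was at 60.5 ± 15.5 in R1 and 115 ± 31.0 in control (-0.92, adjusted p = 0.0054), and at 113 ± 30.4 in R2 (-0.04, adjusted p = 0.921). A link between MYC and CDK4 was not tested.

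Of 10 genes of D-type cyclin turnover, 1 rose and 4 fell in R1 against control, and 1 rose and 2 fell in R2 against control. USP2, a deubiquitinase that stabilises cyclin D1, rose in R1 (14.1 ± 0.628 against 5.61 ± 0.708 in control, 1.26, adjusted p = 6.9e-05) and in R2 (12.4 ± 3.63, 1.05, adjusted p = 0.00053). USP22, another deubiquitinase, fell in R1 (205 ± 22.1, -0.72, adjusted p = 0.00012) and in R2 (183 ± 15.3, -0.88, adjusted p = 3.5e-05), against 337 ± 31.7 in control. CUL4B, a ubiquitin ligase scaffold, was higher in R2 (69.3 ± 6.52) than in R1 (46.0 ± 7.65; log2 fold change 0.59, adjusted p = 0.00097). GSK3B, which marks cyclin D1 for export and breakdown, fell in R1 (78.4 ± 9.79 against 111 ± 5.56 in control, -0.51, adjusted p = 0.0020), and R2 was above R1 (137 ± 15.8, 0.81, adjusted p = 4.7e-05). CCNDBP1, a cyclin D binding protein that belongs to the atypical partners above and not to this list, was at 15.8 ± 2.44 in R2 and 46.3 ± 1.32 in control (-1.53, adjusted p = 2.2e-07).

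Of 10 partners of RB in repression, 2 rose and 1 fell in R1 against control and 3 rose and 1 fell in R2 against control. In R2 against control 0 were called risen without R2 replicate 1 or control replicate 4, and 1 without R2 replicate 3 or 4 or control replicate 1, 2 or 3. With every library, limma gave 4 risen there at an unadjusted p under 0.05 and edgeR 3 with adjustment. HDAC1, a histone deacetylase bound by RB, rose in R1 (181 ± 31.7 against 123 ± 3.87 in control, 0.54, adjusted p = 0.0026), and SMARCA4, a remodelling ATPase, in R2 (344 ± 15.8 against 285 ± 11.4 in control, 0.27, adjusted p = 0.0309), a call that ended without R2 replicate 1, 3 or 4 or control replicate 1, 2 or 4 (highest adjusted p 0.0902). ID2, an inhibitor of helix-loop-helix factors that RB binds, rose in R1 (1.62 ± 0.174, 0.92, adjusted p = 0.0151) and in R2 (1.68 ± 1.13, 0.84, adjusted p = 0.036), against 0.646 ± 0.276 in control. Its R2 call ended without R2 replicate 1 or 2 or control replicate 1, 3 or 4 (highest adjusted p 0.106), with a pseudocount of 2 (0.0531) and in a fit of those groups alone (0.0578). Of 3 catalytic subunits of PP1, the phosphatase that returns RB to its active form, 1 fell in R1 against control. That subunit was PPP1CB (46.5 ± 5.26 in R1 against 80.2 ± 6.33 in control, -0.78, adjusted p = 5.4e-05), and R2 was above R1 for it (85.3 ± 8.38, 0.87, adjusted p = 2.1e-05). NRAS, whose product feeds the cascade that induces CCND1, was at 978 ± 109 in R1, 144 ± 24.8 in R2 and 126 ± 12.6 in control, higher in R1 than in control (2.95, adjusted p = 6.2e-10), while R2 did not pass against control (0.19, adjusted p = 0.304).

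Genes with the most similar profile over the 12 libraries were found among 10399 genes with a mean of at least 5, by the root mean square difference of centred log2 values. For CDK4 they were DCTD, a deoxycytidylate deaminase (0.11), and AGPAT2, an enzyme of phospholipid synthesis (0.11). DCTD averaged 119 in R1, 53.3 in R2 and 73.3 in control. For CCND1 they were POP1 (0.14), a subunit of RNase P, and PPP2R1B (0.16), a scaffold subunit of PP2A. For CDK6 they were TULP4 (0.12) and SPEN (0.14), a transcriptional repressor, at 128 in R1, 211 in R2 and 138 in control. CCND3 was closest to NDUFS1 (0.07) and MPP3 (0.08), RB1 to C9orf41 (0.11) and TMEM184C (0.12), RBL1 to AGPS (0.09) and GPR180 (0.09), and RBL2 to C3orf58 (0.15) and ARL10 (0.15). Over the same 12 libraries the SD of log2 values was 0.51 for CDK4 and CCND1, 0.47 for CDK6 and 0.24 for CCND3 and RB1.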

How the data were processed

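RNA-seq was measured in 12 libraries, 4 each of combination R1, combination R2 and control, grouped by their titles. Libraries came from a TruSeq RNA kit, per the labels. STAR, edgeR and GRCh38 stand in the submitters' processing notes, and versions, annotation and filters are not given in the sources used here. The deposited files hold 1 normalised signal per gene. Every value (100%) was a whole multiple of 1 step per library within 0.001 reads, so reads were recovered by division. TMM-scaled values recomputed from these reads in edgeR differed from the deposited signal by 0.15%. The design had allowed for counts, and the test for a normalised unit was used.

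Tests used limma 3.58.1 in R 4.3.3 on log2(value + 0.5), with empirical Bayes and a mean-variance trend, 3 group means, two-sided, and Benjamini-Hochberg adjustment over 12931 rows. The edgeR 4.0.16 quasi-likelihood test on recovered reads called 2964 genes up and 2681 down in R1 against control, 1725 and 1839 in R2 against control, and 2886 and 3102 in R2 against R1. Other alternatives were DESeq2 1.42.0, a pseudocount of 0.1 or 2, a mean of at least 5, quantile scaling, TMM factors, totals without mitochondrial and ribosomal protein genes, fits of 2 groups, a replicate block and leaving out each library. The fit was tested on simulated data.

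Exon lengths, positions and overlaps came from GENCODE (GRCh38), where 11799 listed genes had 1 position. Genes named were the members, up to 2 called genes per list and comparison with the smallest p and a mean of at least 1, the 2 genes nearest each member in profile, and MKI67, CDKN2A and NRAS. MYC, FOS, JUNB, ETS1 and CDKN1B were added outside this rule. The members and lists were chosen with earlier results of these data known.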

Additional observations from a re-analysis of the deposited data

Results flagged for a closer look

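The effects of R1 and R2 against the same control libraries differed in 4 members, by the limma test of R2 minus R1 itself. CDK4 differed by a log2 fold change of -1.13 (adjusted p = 1.1e-05), with all 4 R2 libraries below all 4 R1 libraries. CDK6 differed by 0.79 (adjusted p = 0.0018), with all 4 R2 libraries above all 4 R1 libraries. CCND1 differed by -0.49 (adjusted p = 0.0346) and CCND3 by -0.42 (adjusted p = 0.0096), each with overlapping ranges. In none of the 21 combinations of a member and a group did a single library stand apart by Dixon's gap test. The nearest to its limit was CCND1 in R1 replicate 2, whose gap to the next library was 0.80 of the range of its group.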

How the results depend on the processing

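Of 210 values of the 7 members in 3 comparisons under the alternatives, 205 kept their side of the threshold, 5 lost the call and 0 called values changed sign. Of 252 values with 1 library left out, 31 lost the call. CDK4 in all 3 comparisons, CDK6 in R2 against control and against R1, CCND1 in R1 against control and CCND3 in R2 against R1 kept their calls in all of these. With only the 2 groups compared, CCND3 in R1 against control was 0.30 (adjusted p = 0.0547) and RB1 -0.35 (adjusted p = 0.0628), and of the pathway genes 21 rose and 23 fell in R2 against control. RB1 in R1 against control was -0.30 (adjusted p = 0.0800) with quantile scaling and -0.31 (adjusted p = 0.104) with totals that leave out mitochondrial and ribosomal protein genes, and 0 members fell there under these 3 alternatives. The cause was not tested.

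With 1 library left out, limma gave 0.22 to 0.38 for CCND3 and -0.42 to -0.24 for RB1 in R1 against control, 0.41 to 0.63 for CCND1 and 0.39 to 0.59 for RBL1 in R2 against control, and -0.66 to -0.40 for CCND1 in R2 against R1. Adjusted p ranged from 0.0128 to 0.126, 0.0272 to 0.124, 0.0128 to 0.128, 0.0105 to 0.0825 and 0.0036 to 0.0984 in that order. Members fallen in R1 against control numbered 0 to 1, and members risen in R2 against control 1 to 3. Pathway genes risen numbered 12 to 28 in R1 against control. In R2 against control 9 to 21 rose and 9 to 21 fell, the lower count of fallen genes without control replicate 1. In R2 against R1 10 to 23 fell.

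A replicate block gave CCND1 0.53 in R2 against control, with its call lost (adjusted p = 0.0526), and ended no other call of a member. It called 2966 genes up and 2832 down in R1 against control, 1810 and 1923 in R2 against control, and 3024 and 3138 in R2 against R1. Same-numbered libraries had no common direction against control: those of R1 and control correlated at -0.31 to 0.39, and those of R2 and control at -0.22 to 0.09. Between R2 and R1 the correlations were weak, at 0.07 to 0.13. Of 8 libraries in each pair of groups, 3, 2 and 6 correlated best with their own number, the 6 being for R2 and R1. Whether the numbers pair the libraries of R2 and R1 was not tested. Depth was no limit for the members, which had at least 364 reads in a library.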

Other observations

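Within the control group, replicates 1 and 2 differed from replicates 3 and 4 in several members. CCND1 was at 309 and 326 normalised counts in control replicates 1 and 2, and at 207 and 232 in replicates 3 and 4. CDK6 was at 65.8 and 63.6 in replicates 1 and 2, and at 46.3 and 53.0 in replicates 3 and 4. RBL2 ran the other way, at 49.7 and 51.9 in replicates 1 and 2, and at 69.6 and 76.8 in replicates 3 and 4. The labels name no batch, the split was noticed in the values, and it was not tested.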
